A study of Mus musculus with 31 samples.

Results

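Skin of C3H/HeJ mice treated for 12 weeks with the topical agent coded jak1i was compared with skin treated for the same time with the agent coded jak3i. The 6 arrays of this comparison, 3 from each inhibitor, were chosen by their sample titles from the 31 arrays of the study and not by any measured value. All groups shared the strain and the disease, an established AA that is read here as alopecia areata, and the labels name the treatments only by these codes, read here as inhibitors of the Janus kinases JAK1 and JAK3. No compound name, dose, sex or age is given in the sources used here, so the inhibitors were compared at matched times and their doses could not be matched. Beside them stand 3 arrays of skin treated with PBS for 12 weeks, and arrays of jak1i and jak3i at 0 and 6 weeks (3 each) and at 24 weeks (2 each).

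Janus kinases sit on the inner face of cytokine receptors and phosphorylate STAT transcription factors once a cytokine binds. JAK1 works with TYK2 at the receptor for type I interferons and with JAK2 at the receptor for interferon-γ, whereas JAK3 pairs with JAK1 at the common gamma chain, which lymphocytes use to sense interleukins such as IL-2 and IL-15. In alopecia areata, cytotoxic T cells gather around the hair follicle, and interferon-γ response genes are expressed in the skin.

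Of 18193 genes measured, 0 (0%) differed between jak1i and jak3i at 12 weeks at a limma adjusted p under 0.05, and the smallest adjusted p was 0.277. At an unadjusted p under 0.05 there were 351 genes higher in jak1i (1.93% of all genes) and 736 lower (4.05%), and these shares are the background for each list below. They depend on the scaling: centring each array on its median moved the median difference of all genes to 0.11 and gave 1376 genes higher and 320 lower. With 1 array left out there were 195 to 429 genes higher and 453 to 789 lower, with 195 and 462 without jak3i replicate 3. All 3 jak1i arrays lay above all 3 jak3i arrays for 7.38% of genes and below them for 8.39%. Of all genes, 50.6% had a difference below 0 and 49.4% above 0, and the median log2 difference was -0.002. All differences below are jak1i minus jak3i on the log2 scale of the authors' RMA values, with the standard error (SE) of the fit, and none of the genes named was called. Whole skin was measured, so fewer cells of a type and less RNA per cell cannot be told apart.

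The arrays carried skin transcripts: the basal keratinocyte keratins Krt5 and Krt14 had log2 values of 13.17 to 13.40 and 13.57 to 13.74 on the 6 arrays, and the fibroblast gene Dcn 13.45 to 13.85. One array stood apart from its group in several lists, jak3i replicate 3. It was the highest of the 6 arrays for 15.9% of all genes, but for 32 of 33 type I interferon genes, 20 of 26 neutrophil genes, 19 of 29 stressed keratinocyte genes, 18 of 34 endothelial genes and 17 of 24 interferon-γ genes. The 5 main lists and the macrophage list are therefore given with and without this array.

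**Figure D1:**
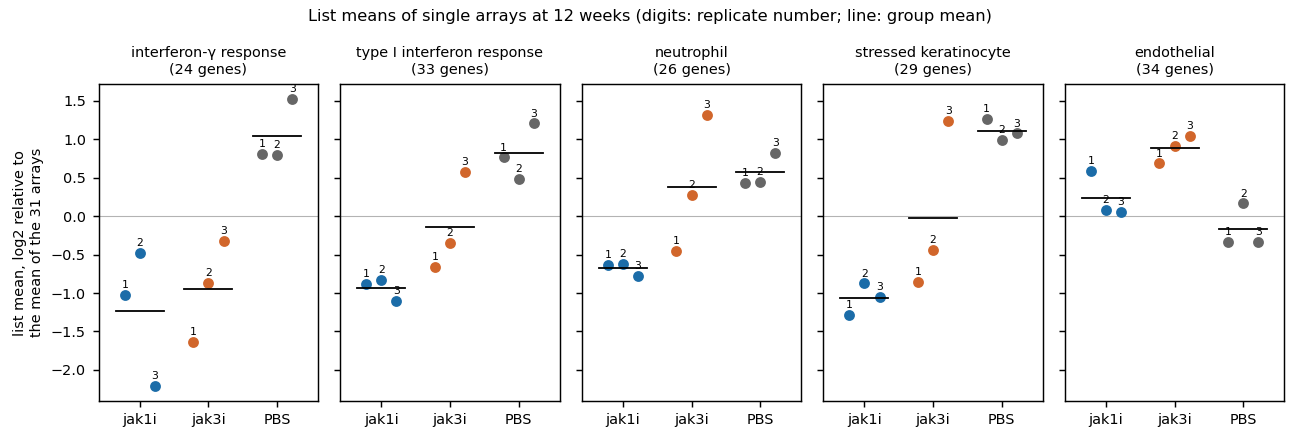
Mean log2 value of each of the 5 gene lists on the single arrays of jak1i, jak3i and PBS skin at 12 weeks, relative to the mean of the 31 arrays; points are arrays, digits are replicate numbers and lines are group means. In the neutrophil and stressed keratinocyte panels jak3i replicate 3 lies at 1.32 and 1.24, above every jak1i array (highest -0.62 and -0.88), and in the endothelial panel all 3 jak1i arrays lie below all 3 jak3i arrays.

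Type I interferon response genes had differences below 0, of which 18 of 33 passed an unadjusted p under 0.05 and 0 were called. Of 36 listed genes 33 were measured, and 33 of 33 had a difference below 0, beside 50.6% of all genes. The 18 of 33 past the unadjusted p stood beside 4.05% of all genes, and 20 of 33 had non-overlapping groups, beside 8.39%. With each array centred on its median, 32 of 33 were below 0. The centred fit had 14 of 33 past the unadjusted p, beside 320 of all 18193 genes as lower. The median difference was -0.92, beside -0.002 for all genes. The list mean lay at -0.88, -0.83 and -1.10 on the jak1i arrays, against -0.66, -0.34 and 0.57 on the jak3i arrays, so the groups did not overlap. PBS arrays lay at 0.76, 0.49 and 1.21, and jak3i replicate 3 was the one inhibitor array within that range. Without jak3i replicate 3 the median was -0.49, 30 of 33 genes were below 0 and 2 of 33 passed the unadjusted p. Leaving out jak1i replicate 3 left 11 of 33 past it, with a median of -0.76.

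Mx1, which encodes an interferon-induced GTPase that blocks viruses, had log2 values of 5.64, 5.73 and 5.5 in jak1i skin, against 6.47, 6.29 and 8.21 in jak3i skin. The jak1i arrays were all below the jak3i arrays, and the jak1i values spread over less than the gap between jak3i replicate 3 and its group. The difference was -1.37 ± 0.56 (SE), a 2.58-fold lower value, with a limma adjusted p of 0.787. Oasl2, a member of the 2'-5'-oligoadenylate synthetase family of RNA sensors, had 6.88, 7.31 and 6.57 in jak1i skin, against 7.79, 7.82 and 9.46 in jak3i skin. Its groups did not overlap either, and the difference was -1.44 ± 0.60 (limma adjusted p 0.789). Irf7, the transcription factor that amplifies type I interferon production, had 6.37, 6.69 and 6.91 in jak1i skin, against 7.14, 7.67 and 9.08 in jak3i skin. Its difference was -1.31 ± 0.45, and -0.75 ± 0.43 without jak3i replicate 3.

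Among the interferon-induced genes with tetratricopeptide repeats, whose proteins bind viral RNA, Ifit1 had 7.34, 7.60 and 6.83 in jak1i skin, against 7.74, 8.17 and 9.69 in jak3i skin (difference -1.28 ± 0.55). Ifit3 had 8.06, 7.77 and 7.77 in jak1i skin, against 8.42, 8.83 and 10.02 in jak3i skin (difference -1.22 ± 0.46). In both genes the lowest jak3i array still stood above the highest jak1i array. Lgals3bp, which encodes a secreted galectin-binding protein, had the smallest adjusted p of the list, 0.554 by limma. Its values were 8.21, 8.07 and 8.14 in jak1i skin, against 8.74, 9.48 and 9.69 in jak3i skin, and the difference was -1.17 ± 0.33, and -0.97 ± 0.36 without jak3i replicate 3. Both of its remaining jak3i arrays lay above all jak1i arrays. Trim30a and Oas2 completed the 8 largest differences of the list, with -1.13 ± 0.40 and -1.10 ± 0.37. Leaving jak3i replicate 3 out, the differences were -0.76 for Mx1, -0.88 for Oasl2, -0.70 for Ifit1, -0.76 for Ifit3, -0.72 for Trim30a and -0.66 for Oas2.

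Genes picked after their values were seen stand for the end of the list nearest 0. Irf9 and Stat2, subunits of the transcription factor that type I interferon activates, differed by -0.03 ± 0.23 and -0.13 ± 0.37. The double-stranded RNA kinase gene Eif2ak2 differed by -0.11 ± 0.30. All 3 had overlapping groups and a positive difference, from 0.10 to 0.12, without jak3i replicate 3, and the difference of Irf9 was also positive after centring the arrays.

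Sequences upstream of interferon-induced genes can carry the element through which this transcription factor acts. The 4 shown were picked, after their values were seen, from the windows with 2 copies of its core. The core of the interferon-stimulated response element, GAAA and a further GAAA separated by any 2 bases, was searched on both strands in RefSeq promoter windows of GRCm38.p6, from 250 bases before to 50 bases after each annotated start. Windows with the motif made up 3.44% of 32851 windows in all, 12 of 28 windows (42.9%) of 22 matched type I genes and 9 of 18 windows (50%) of 15 matched interferon-γ genes. For the other lists it was 1 of 24 neutrophil windows, 2 of 24 stressed keratinocyte windows and 0 of 23 endothelial windows. The letters TTCNNNGAA, the core of the gamma-activated site bound by STAT dimers, stood in 8.3% of all windows, 17.9% of type I windows, 27.8% of interferon-γ windows, 12.5% of neutrophil windows, 8.33% of stressed keratinocyte windows and 0% of endothelial windows. TTCNNNGAA reads the same on both strands and can share bases with a copy of the response element core. The 250 bases before the start are printed here, 5′ to 3′ on the gene's strand with the response element core or its reverse complement in capitals, for Ifit1 (chr19:34640639-34640888, plus strand), Ifit3 (chr19:34583279-34583528, plus strand), Oas1a (chr5:120907526-120907775, minus strand) and Irgm1 (chr11:48871421-48871670, minus strand). They are reference sequences and not those of C3H/HeJ mice.
Ifit1: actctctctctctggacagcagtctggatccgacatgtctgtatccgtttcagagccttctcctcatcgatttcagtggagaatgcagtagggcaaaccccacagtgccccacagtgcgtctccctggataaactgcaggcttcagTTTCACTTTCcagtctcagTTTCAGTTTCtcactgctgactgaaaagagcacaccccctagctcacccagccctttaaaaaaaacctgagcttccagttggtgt
Ifit3: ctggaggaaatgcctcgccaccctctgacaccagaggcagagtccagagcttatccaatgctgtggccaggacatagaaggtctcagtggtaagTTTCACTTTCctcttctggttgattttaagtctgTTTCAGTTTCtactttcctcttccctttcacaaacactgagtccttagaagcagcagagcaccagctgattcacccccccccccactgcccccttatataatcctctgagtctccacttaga
Oas1a: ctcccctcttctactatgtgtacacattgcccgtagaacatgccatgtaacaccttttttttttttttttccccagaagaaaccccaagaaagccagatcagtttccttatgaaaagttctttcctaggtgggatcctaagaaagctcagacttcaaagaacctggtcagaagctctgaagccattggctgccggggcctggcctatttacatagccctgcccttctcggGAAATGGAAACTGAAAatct
Irgm1: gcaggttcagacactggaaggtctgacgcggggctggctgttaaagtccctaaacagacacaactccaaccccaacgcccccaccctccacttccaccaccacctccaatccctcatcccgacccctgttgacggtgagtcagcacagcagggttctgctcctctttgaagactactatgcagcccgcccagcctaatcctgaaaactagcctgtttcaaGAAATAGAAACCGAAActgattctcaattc
Each of the 4 windows held 2 copies, apart from each other in Ifit1 and Ifit3 and overlapping in Oas1a and Irgm1. The windows of Oasl2, Irf7 and Lgals3bp held 0 copies, with differences of -1.44, -1.31 and -1.17. That of Socs1, in the interferon-γ list, held 2 copies, with a difference of -0.01. Whether copies of the motif go with the differences was not tested. Ifit1, Ifit3 and Oas1a belong to the type I list, and Oas1a had 8.60, 8.96 and 8.90 in jak1i skin, against 9.43, 9.32 and 10.79 in jak3i skin (difference -1.03 ± 0.45). Irgm1 belongs to the interferon-γ list, encodes a GTPase that acts against bacteria inside cells, and had 9.0, 9.44 and 8.05 in jak1i skin, against 8.57, 9.14 and 10.16 in jak3i skin. The Irgm1 groups overlapped, with a difference of -0.46 ± 0.51 (-0.03 without jak3i replicate 3).

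**Figure D2:**
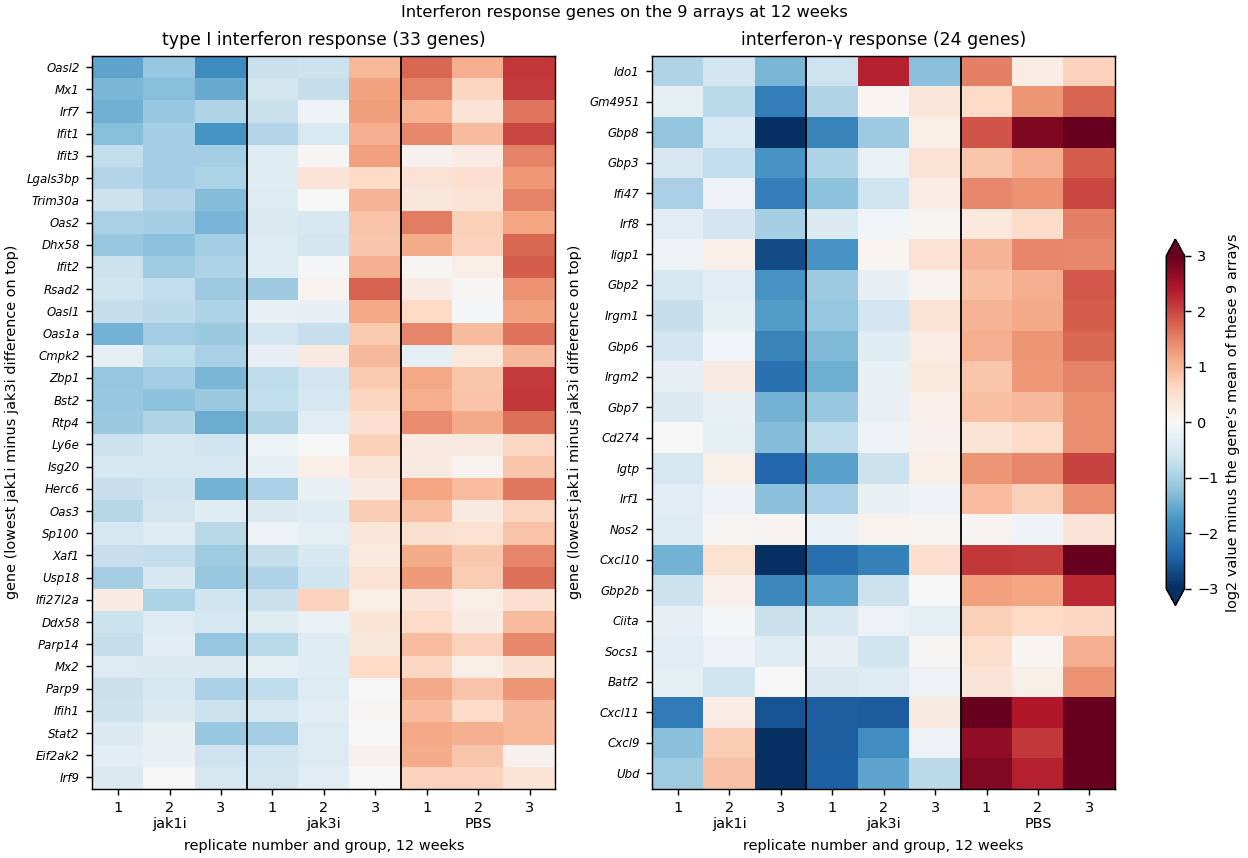
Log2 values of the 33 type I and 24 interferon-γ response genes on the 9 arrays at 12 weeks, each gene relative to its mean of these arrays, with colours that saturate at 3 in either direction. The column of jak3i replicate 3 is the highest inhibitor column for 32 of 33 type I genes, while in the interferon-γ panel jak1i replicate 3 has the lowest list mean, -2.21, and jak1i replicate 2 is high for Cxcl9, Cxcl11 and Ubd.

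For interferon-γ response genes the jak1i and jak3i arrays overlapped in every measured gene. Of 32 listed genes 24 were measured, 20 of 24 had a difference below 0 (15 of 24 after centring the arrays), 0 of 24 passed an unadjusted p under 0.05 and 0 of 24 had non-overlapping groups. The median difference was -0.28. It rested on single arrays: -0.76 without jak1i replicate 2, -0.47 without jak1i replicate 1, 0.12 without jak1i replicate 3, -0.62 without jak3i replicate 1 and -0.02 without jak3i replicate 3. The list mean was -1.02, -0.48 and -2.21 on the jak1i arrays and -1.63, -0.87 and -0.33 on the jak3i arrays, against 0.81, 0.79 and 1.53 on the PBS arrays. Both inhibitor groups lay below every PBS array, and the spread within each inhibitor group was wider than the distance between them.

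The chemokine genes Cxcl9, Cxcl10 and Cxcl11, whose proteins draw CXCR3-bearing T cells, showed the same split within groups. Cxcl9 had 8.69, 10.70 and 6.68 in jak1i skin and 7.47, 8.08 and 9.78 in jak3i skin, against 12.62, 12.08 and 13.45 in PBS skin. Cxcl10 had 7.11, 8.97 and 5.49 in jak1i skin, and 6.25, 6.5 and 9.03 in jak3i skin. Cxcl11 had 6.19, 8.51 and 5.69 in jak1i skin, and 5.80, 5.78 and 8.56 in jak3i skin. In Cxcl10 and Cxcl11, jak1i replicate 2 and jak3i replicate 3 were the high arrays. The differences were 0.25 ± 1.07, -0.07 ± 1.01 and 0.09 ± 0.97 for Cxcl9, Cxcl10 and Cxcl11, and the 95% interval for Cxcl9 ran from -1.97 to 2.47, so its direction was not detectable with these arrays.

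Other members of this list had their own outlying arrays. Ido1, the tryptophan-degrading enzyme that interferon-γ induces, had the largest difference of the list, -1.09 ± 0.64. Its values were 4.68, 5.01 and 4.21 in jak1i skin, against 4.96, 7.88 and 4.33 in jak3i skin, so jak3i replicate 2 alone was high. The guanylate-binding protein genes Gbp8, Gbp3 and Gbp2, which encode interferon-induced GTPases, differed by -0.79 ± 1.04, -0.77 ± 0.57 and -0.47 ± 0.60. Gbp8 ranged from 4.24 to 7.37 over the jak1i arrays and from 5.86 to 8.04 over the jak3i arrays. The immunity-related GTPase genes Gm4951, Ifi47 and Iigp1 differed by -0.89 ± 0.61, -0.53 ± 0.56 and -0.47 ± 0.82, and the transcription factor genes Irf8 and Irf1 by -0.47 ± 0.38 and -0.14 ± 0.38. Transcripts of the cytokine and its receptor were also close: Ifng had 4.14, 4.50 and 4.30 in jak1i skin and 4.16, 3.84 and 5.02 in jak3i skin, against 7.18, 7.05 and 8.01 in PBS skin. The difference of Ifng between the inhibitors was -0.03 ± 0.60 and that of Ifngr1, a receptor chain gene, 0.18 ± 0.20.

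The 4 Janus kinase genes themselves had small differences. Jak1 had 10.44, 10.69 and 10.65 in jak1i skin, against 10.68, 10.59 and 10.63 in jak3i skin. Jak3 had 5.77, 5.69 and 5.26 in jak1i skin, against 5.83, 5.84 and 5.97 in jak3i skin, so its groups did not overlap. The differences were -0.04 ± 0.15 for Jak1, -0.31 ± 0.14 for Jak3 (limma adjusted p 0.801), -0.11 ± 0.15 for Jak2 and -0.007 ± 0.11 for Tyk2. Over the wider list of Janus kinase, STAT and receptor genes, 16 of 19 had a difference below 0 and 2 of 19 passed the unadjusted p as lower in jak1i, beside 50.6% and 4.05% of all genes. After centring these counts were 11 and 0 of 19, and 0 of 19 passed without jak1i replicate 3 or without jak3i replicate 2. Without jak3i replicate 3, 14 of 19 were below 0 and 1 of 19 passed. Stat5a, which carries signals from common gamma chain receptors, differed by -0.52 ± 0.22, and Il6st, the signalling chain of IL-6 family receptors, by -0.50 ± 0.31. Neither pair of groups overlapped. On its other probe sets Il6st differed by 0.30, -0.20 and -0.71, so their signs were mixed.

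Genes of the neutrophil list were lower in jak1i skin, and much of this difference lay in a single array. Of 34 listed genes 26 were measured, and 24 of 26 had a difference below 0 (21 of 26 after centring), beside 50.6% of all genes. The list had 7 of 26 past an unadjusted p under 0.05 and 8 of 26 with non-overlapping groups, beside 4.05% and 8.39%. The median was -0.74 with all arrays and -0.25 without jak3i replicate 3, which also left 1 of 26 past the unadjusted p. Over the 15 genes that passed a filter on dim genes the median was -1.71. A gene can pass that filter through high values in the groups compared, so this median adds no support. Without jak3i replicate 1 there were 14 of 26 past the unadjusted p. The list mean was -0.63, -0.62 and -0.78 on the jak1i arrays, against -0.46, 0.27 and 1.32 on the jak3i arrays. PBS arrays had 0.44, 0.44 and 0.83, so jak3i replicate 3 exceeded all 3 of them.

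S100a8 and S100a9 encode the paired alarm proteins of calprotectin, made by neutrophils and by inflamed keratinocytes, and stand in both the neutrophil and the stressed keratinocyte list. S100a8 had 7.68, 7.78 and 8.67 in jak1i skin, against 8.81, 10.96 and 13.45 in jak3i skin. The jak3i arrays were spread far more widely than the jak1i arrays. Its difference was -3.03 ± 1.24, and the 95% interval ran from -5.60 to -0.46 (limma adjusted p 0.787). S100a9 had 8.06, 7.70 and 7.88 in jak1i skin, against 9.05, 10.28 and 12.92 in jak3i skin, a difference of -2.87 ± 1.18. Without jak3i replicate 3 the differences were -1.84 ± 1.30 and -1.78 ± 1.24.

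Neutrophil-attracting chemokine genes followed the same array. Cxcl2 had 4.84, 4.47 and 4.41 in jak1i skin, against 4.33, 7.77 and 10.68 in jak3i skin, so jak3i replicate 1 was below the jak1i arrays while replicates 2 and 3 were far above. The difference was -3.02 ± 1.12, and -1.47 ± 1.04 without jak3i replicate 3. Cxcl5 had 3.35, 3.45 and 3.13 in jak1i skin, against 3.45, 4.74 and 8.32 in jak3i skin (difference -2.19 ± 0.90). Cxcl1, another such chemokine gene, differed by -0.12 ± 0.19 on the probe set used, and by -1.11 and -0.69 on its other probe sets. The iron-binding defence protein genes Lcn2 and Ltf differed by -2.06 ± 1.01 and -1.91 ± 1.06; Ltf was high in jak3i replicate 2 alone, at 10.44, against 4.53 to 4.93 on the other 5 arrays, and its difference was 0.01 without that array. The cystatin gene Stfa2l1 and the lectin receptor gene Clec4d differed by -2.07 ± 1.02 and -1.71 ± 0.63, and the cytokine gene Il1b by -0.81 ± 0.53. Without jak3i replicate 3 the differences were -0.78 for Cxcl5, -1.59 for Lcn2, -2.94 for Ltf, -0.77 for Stfa2l1, -0.82 for Clec4d and -0.02 for Il1b.

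Receptor genes that mark the neutrophil itself differed less. Csf3r, the receptor for granulocyte colony-stimulating factor, had 5.64, 5.86 and 5.66 in jak1i skin, against 6.00, 5.97 and 7.23 in jak3i skin, a difference of -0.68 ± 0.27. The chemokine receptor gene Cxcr2 had 5.52, 5.45 and 5.20 in jak1i skin, against 5.56, 5.63 and 6.31 in jak3i skin, a difference of -0.44 ± 0.23. They were -0.26 for Csf3r and -0.20 for Cxcr2 without jak3i replicate 3. Among genes for proteins stored in neutrophil granules, which include Lcn2 and Ltf above, some had small differences and overlapping groups. Picked after their values were seen, these were Mpo with -0.004 ± 0.27, Elane -0.03 ± 0.12, Ngp -0.03 ± 0.12 and Camp 0.07 ± 0.18. Their means over the 31 arrays were low, at 5.45, 4.30, 5.47 and 5.14, below the lowest array median of 6.05. At such levels a difference may not be visible, so these small values do not describe the neutrophils.

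Stressed keratinocyte genes, which hyperproliferating or wounded epidermis expresses, divided into members far lower in jak1i skin and members with small differences. Of 45 listed genes 29 were measured, and 21 of 29 had a difference below 0 (19 of 29 after centring), beside 50.6% of all genes. An unadjusted p under 0.05 was passed by 7 of 29, all lower, beside 4.05%. Non-overlapping groups were lower in jak1i for 12 of 29, beside 8.39% of all genes. They were higher for 2 of 29, near the 7.38% of all genes. The median was -0.87, and -0.33 without jak3i replicate 3, where 1 of 29 passed the unadjusted p. Leaving out jak1i replicates 1 and 2 in turn left 4 and 3 of 29, and leaving out jak3i replicate 1 gave 13 of 29. The list mean was -1.29, -0.88 and -1.05 on the jak1i arrays, against -0.85, -0.44 and 1.24 on the jak3i arrays, and PBS arrays lay at 1.26, 0.99 and 1.08.

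Krt6b, a keratin of wounded and hyperproliferating keratinocytes, had the largest difference of the list. It had 6.25, 8.22 and 8.55 in jak1i skin, against 8.75, 11.11 and 13.69 in jak3i skin and 12.61, 13.86 and 12.55 in PBS skin. Its difference was -3.51 ± 1.29 (an 11.4-fold lower value, limma adjusted p 0.767), with both inhibitor groups widely spread, and -2.26 without jak3i replicate 3. Stfa3, which encodes a stefin inhibitor of cysteine proteases, had the smallest adjusted p of the list, 0.554 by limma. Its values were 7.22, 7.09 and 7.73 in jak1i skin, against 8.87, 9.71 and 12.16 in jak3i skin, with a difference of -2.90 ± 0.78, and -1.94 ± 0.77 without jak3i replicate 3. Every jak3i array lay above every jak1i array.

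Small proline-rich proteins, which are cross-linked into the cornified envelope, were among the larger differences. Sprr2d had 6.90, 6.03 and 6.93 in jak1i skin, against 7.81, 8.78 and 11.80 in jak3i skin (difference -2.84 ± 1.01), and Sprr2f differed by -2.09 ± 1.01. Sprr1b differed by -1.87 ± 1.41 with overlapping groups. The matrix metalloproteinase gene Mmp13 and the defensin gene Defb3 differed by -2.20 ± 1.05 and -1.94 ± 1.06. The differences were -1.68 for Sprr2d, -0.77 for Sprr2f, -0.54 for Sprr1b, -1.08 for Mmp13 and -0.77 for Defb3 without jak3i replicate 3. Other stress keratins did not follow Krt6b: Krt16 had 8.73, 10.33 and 8.82 in jak1i skin, against 8.79, 9.73 and 12.50 in jak3i skin (difference -1.05 ± 0.87, and 0.04 without jak3i replicate 3). Krt6a differed by 0.21 ± 0.56. Krt17 had 11.93, 12.42 and 11.80 in jak1i skin, against 11.75, 11.41 and 11.73 in jak3i skin, so it was higher in jak1i by 0.42 ± 0.31 with groups that did not overlap.

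**Figure D3:**
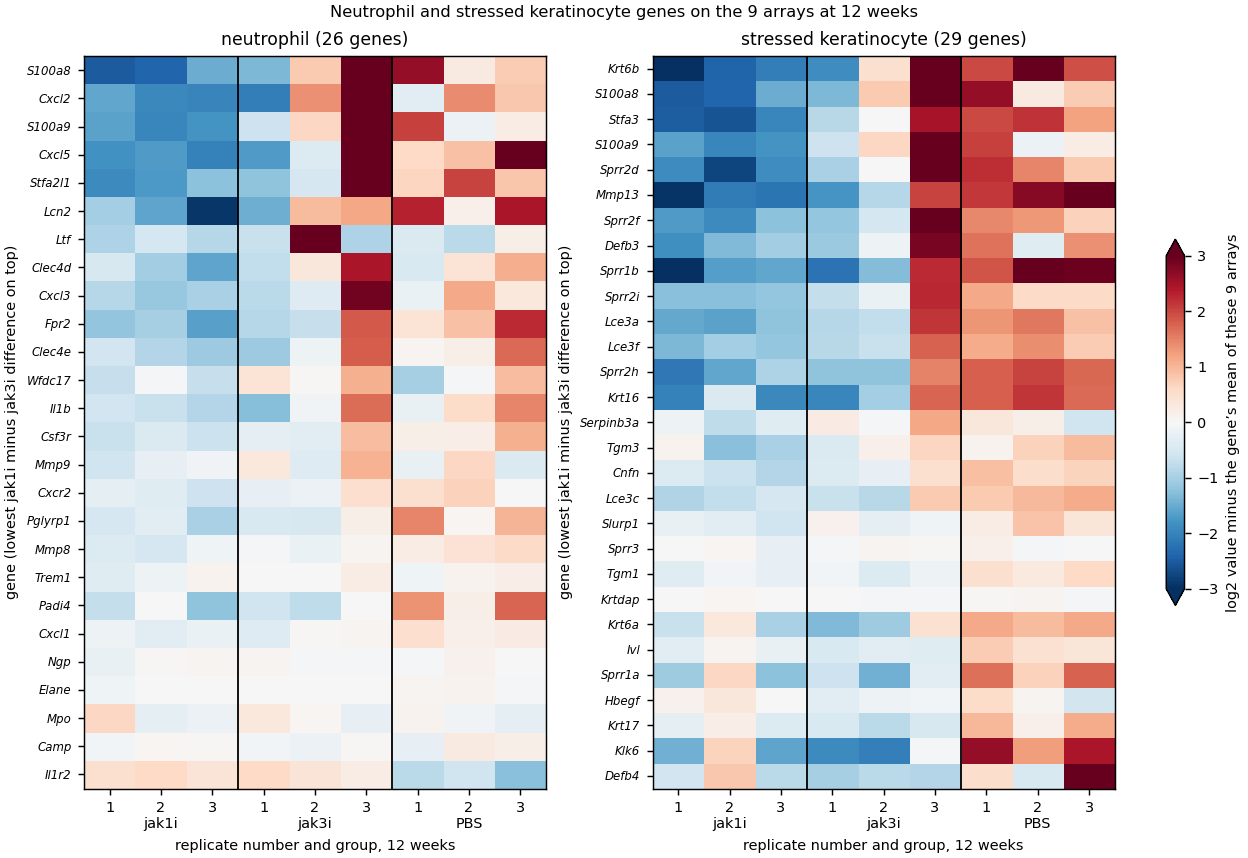
Log2 values of the 26 neutrophil and 29 stressed keratinocyte genes on the 9 arrays at 12 weeks, each gene relative to its mean of these arrays, with colours that saturate at 3 in either direction. S100a8, Cxcl2, Krt6b and Stfa3 are high in jak3i replicate 3 and in the PBS arrays and low on the 3 jak1i arrays. Mpo and Elane show little contrast, at low means of 5.45 and 4.30 over the 31 arrays.

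Endothelial genes were lower in jak1i skin by a more even margin, which rested less on one array. All 34 listed genes were measured, and 33 of 34 had a difference below 0 (32 of 34 after centring), beside 50.6% of all genes. The list had 14 of 34 past an unadjusted p under 0.05 and 18 of 34 with non-overlapping groups, beside 4.05% and 8.39%. The median was -0.65, and -0.57 without jak3i replicate 3, with 33 of 34 still below 0. The number past the unadjusted p was 6 without jak3i replicate 3, 8 without jak1i replicate 2, 8 without jak1i replicate 3 and 19 without jak1i replicate 1. The list mean was 0.59, 0.08 and 0.05 on the jak1i arrays, against 0.69, 0.91 and 1.05 on the jak3i arrays, and PBS arrays lay at -0.34, 0.16 and -0.33.

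Aplnr, the apelin receptor gene of growing vessels, had 8.78, 8.67 and 8.33 in jak1i skin, against 9.95, 9.82 and 11.16 in jak3i skin. All jak3i arrays lay above all jak1i arrays, and the difference was -1.72 ± 0.47 (limma adjusted p 0.554), and -1.29 ± 0.49 without jak3i replicate 3. On its other probe set Aplnr differed by -0.75. Tie1, an endothelial receptor tyrosine kinase gene, had 5.74, 5.29 and 5.06 in jak1i skin, against 5.66, 6.48 and 6.93 in jak3i skin, so jak1i replicate 1 overlapped the jak3i group. Its difference was -0.99 ± 0.26, and -0.70 ± 0.26 without jak3i replicate 3.

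Junction genes of the vessel wall followed. Cdh5, vascular endothelial cadherin, had 7.89, 7.25 and 7.21 in jak1i skin, against 8.11, 8.39 and 8.93 in jak3i skin (difference -1.03 ± 0.40). Pecam1, the adhesion molecule also called CD31, had 7.61, 6.97 and 7.15 in jak1i skin, against 7.81, 7.74 and 8.39 in jak3i skin (difference -0.74 ± 0.32). In both genes jak1i replicate 1 was the closest to the jak3i arrays. Esam, another adhesion molecule gene, differed by -0.86 ± 0.29, Egfl7 by -0.87 ± 0.31, the von Willebrand factor gene Vwf by -0.89 ± 0.39 and Plvap, a gene of fenestrated vessels, by -0.83 ± 0.32, all with groups that did not overlap. Leaving out jak3i replicate 3 gave -0.80 for Cdh5, -0.53 for Pecam1, -0.75 for Esam, -0.78 for Egfl7, -0.73 for Vwf and -0.58 for Plvap.

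The growth factor receptor genes differed by less: Kdr, a receptor for vascular endothelial growth factor, by -0.46 ± 0.38, the angiopoietin receptor gene Tek by -0.57 ± 0.43, Flt1, which also binds that growth factor, by -0.35 ± 0.44 and Eng, a co-receptor for the transforming growth factor family, by -0.45 ± 0.16. The growth factor gene Vegfa had 8.65, 8.23 and 7.94 in jak1i skin, against 8.78, 9.34 and 9.10 in jak3i skin, a difference of -0.80 ± 0.35. On its other probe set it differed by -0.21. Of the lymphatic markers, Lyve1 differed by -1.15 ± 0.66 and Prox1 by 0.21 ± 0.35; the difference of Lyve1 at 0 weeks was -1.95. Stromal lists had the same sign: 17 of 17 fibroblast and matrix genes and 12 of 15 smooth muscle and pericyte genes were below 0, with medians of -0.41 and -0.21, and of -0.33 and -0.19 without jak3i replicate 3. The matrix gene Col1a1 differed by -1.13 ± 0.56 and the pericyte gene Rgs5 by -0.76 ± 0.44. At 0 weeks the medians of these 2 stromal lists were already -0.43 and -0.19, with 16 of 17 and 13 of 15 genes below 0. Their median changes between 0 and 12 weeks were 0.016 and -0.004. The part of stromal content in the endothelial difference was not tested.

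**Figure D4:**
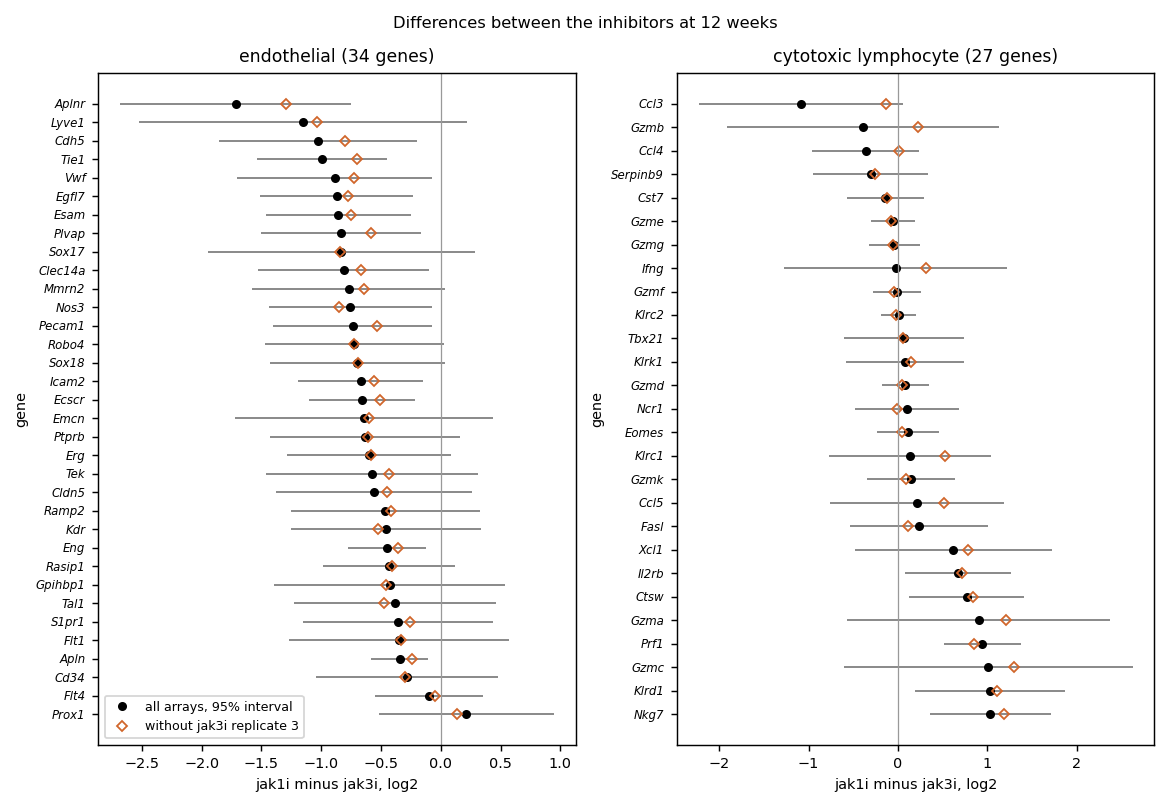
Jak1i minus jak3i differences at 12 weeks for the 34 endothelial and 27 cytotoxic lymphocyte genes; black points and grey bars are the fitted difference and its 95% interval, and open diamonds are the difference without jak3i replicate 3. In the endothelial panel 33 of 34 points lie below 0 with diamonds close to them, and in the cytotoxic panel Nkg7, Klrd1 and Prf1 lie above 0 with and without that array.

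Over all genes, those with the smallest p formed no single one of these lists. Pgap6, which encodes a phospholipase that acts on lipid-anchored proteins, had the smallest p. It had 6.18, 6.12 and 6.11 in jak1i skin, against 6.96, 6.96 and 7.93 in jak3i skin, and differed by -1.14 ± 0.21 (limma adjusted p 0.277). On its other probe sets it differed by -0.37, -0.14 and 0.08. Slfn4, a schlafen family gene that interferon induces in myeloid cells, had 7.13, 7.22 and 8.08 in jak1i skin, against 9.65, 9.76 and 12.29 in jak3i skin. Its 3 jak3i arrays all exceeded its jak1i arrays, and it differed by -3.09 ± 0.61 (limma adjusted p 0.412), and by -2.23 without jak3i replicate 3. Stab1, a scavenger receptor gene of macrophages and sinusoidal endothelium, had 8.45, 8.07 and 8.03 in jak1i skin, against 9.15, 8.87 and 9.55 in jak3i skin (difference -1.01 ± 0.24, limma adjusted p 0.554).

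The other genes of the 10 smallest p values on the lower side had differences between -0.34 and -0.71. They were the lymphotoxin receptor gene Ltbr, the lysosomal enzyme gene Naglu, the phospholamban gene Pln, Rab4b, Fbxw17, Slc38a6 and Npy2r. On the higher side stood Prf1, Trp63, Senp6, Zfp626, Fgfbp1, Irx2, Trp53inp1, Lgr4, Mfhas1 and Polr3f, with differences from 0.35 to 0.94 and a limma adjusted p of 0.554. Trp63, the transcription factor p63 that maintains basal keratinocytes, had 12.01, 12.15 and 12.19 in jak1i skin, against 11.70, 11.68 and 11.59 in jak3i skin, a difference of 0.46 ± 0.11. Lgr4, a receptor for the Wnt-enhancing R-spondins, differed by 0.67 ± 0.19, and Fgfbp1, a carrier of fibroblast growth factors, by 0.64 ± 0.17. On its other probe set Lgr4 differed by -0.11.

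Markers of other cell types differed beside these lists. Macrophage genes had the lowest median of the lists, -1.02, with 21 of 22 below 0, beside 50.6% of all genes. The list had 10 of 22 past the unadjusted p (6 of 22 after centring) and 15 of 22 with non-overlapping groups, beside 4.05% and 8.39%. The macrophage list mean was -0.64, -0.45 and -0.89 on the jak1i arrays, against -0.19, 0.02 and 0.94 on the jak3i arrays. Without jak3i replicate 3 the median was -0.57 and 0 of 22 passed the unadjusted p. Without jak1i replicate 1 and without jak1i replicate 3, 6 and 4 of 22 passed it. The endotoxin co-receptor gene Cd14 had 7.80, 7.77 and 7.57 in jak1i skin, against 8.25, 9.31 and 9.96 in jak3i skin (difference -1.46 ± 0.48). Fcgr1, a receptor for antibodies, differed by -1.79 ± 0.69, and by -0.45 on its other probe set. The complement genes C1qa, C1qb and C1qc, picked after their values were seen, differed by -1.11, -1.30 and -1.28. At 0 weeks they had differed by -0.76, -0.97 and -0.78. Leaving jak3i replicate 3 out gave -1.07 for Cd14, -1.14 for Fcgr1, -0.85 for C1qa, -0.92 for C1qb and -1.02 for C1qc. The part of macrophage content in the interferon, neutrophil and endothelial differences was not tested.

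Cytotoxic lymphocyte genes lay on both sides of 0. Of 29 listed genes 27 were measured, and 18 of 27 had a difference above 0 (22 of 27 after centring), beside 49.4% of all genes. An unadjusted p under 0.05 was passed as higher by 5 of 27, beside 1.93% of all genes. The same 5 of 27 had non-overlapping groups, beside 7.38% of all genes. After centring 5 of 27 also passed the unadjusted p as higher, where 1376 genes were higher. The median was 0.10, 0.11 without jak3i replicate 3 and 0.0088 without jak1i replicate 2. The 5 genes were Prf1, Nkg7, Klrd1, Ctsw and Il2rb, the other 3 beside Prf1 and Nkg7 being picked after their values were seen. Klrd1, Ctsw and Il2rb had already differed by 1.12, 0.77 and 0.43 at 0 weeks. The median of the whole list was 0.36 at 0 weeks, and its median change between 0 and 12 weeks was -0.11. The largest difference of the list had the opposite sign: the chemokine gene Ccl3 had 4.23, 4.63 and 4.39 in jak1i skin, against 4.13, 4.98 and 7.41 in jak3i skin. It differed by -1.09 ± 0.55, and by -0.14 without jak3i replicate 3, the only array where it was high. Prf1, the pore-forming perforin of killer cells, had 6.32, 6.62 and 6.45 in jak1i skin, against 5.29, 5.94 and 5.33 in jak3i skin, and 7.18, 6.6 and 7.06 in PBS skin. Its difference was 0.94 ± 0.21 (limma adjusted p 0.554), and 0.21 on its other probe set. Nkg7, a granule membrane protein gene, had 6.79, 7.43 and 7.10 in jak1i skin, against 5.42, 6.41 and 6.39 in jak3i skin, and differed by 1.03 ± 0.33; it had differed by 0.84 at 0 weeks. Granzyme genes had wider errors, with 0.90 ± 0.71 for Gzma and -0.39 ± 0.73 for Gzmb. The T cell genes Cd3e and Cd8a differed by 0.03 ± 0.16 and -0.06 ± 0.29, and Cd8a turned positive when arrays were centred. Without jak3i replicate 1, 1 of 27 passed the unadjusted p as higher, and without jak1i replicate 2, 2 of 27.

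Mast cell genes Fcer1a and Tpsab1, for a chain of the immunoglobulin E receptor and for tryptase, had non-overlapping groups, lower in jak1i skin, with differences of -1.87 ± 0.54 and -1.45 ± 0.59. They were -1.44 for Fcer1a and -0.89 for Tpsab1 without jak3i replicate 3. Krt2, a keratin of the upper epidermis, had 4.10, 3.95 and 3.93 in jak1i skin, against 8.76, 5.45 and 6.95 in jak3i skin, a difference of -3.06 ± 0.81. Here jak3i replicate 1 was the highest array, and the difference without replicate 3 was -3.11. Casp14, the protease gene of cornifying cells, differed by -1.02 ± 0.41, and by 0.01 on its other probe set.

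Follicle and tissue content differed among arrays of the same group. The inner root sheath list mean was -2.76, -0.86 and -0.66 on the jak1i arrays, and -2.84, -3.40 and -0.57 on the jak3i arrays. The hair shaft mean was -2.26, -0.83 and -2.05 on the jak1i arrays, and -2.59, -3.03 and -0.95 on the jak3i arrays. The skeletal muscle mean was 0.10, 1.47 and 1.13 on the jak1i arrays, and 1.67, -0.24 and 1.25 on the jak3i arrays. Their groups overlapped, and jak3i replicate 3 had the highest follicle content of its group. With the hair shaft mean as a covariate, the list medians were -0.999 for type I, -0.31 for interferon-γ, -0.80 for neutrophil, -0.96 for stressed keratinocyte and -0.57 for endothelial genes.

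Against PBS at 12 weeks, both inhibitors were set beside the same 3 PBS arrays, so the values below share their controls. The median jak1i minus PBS and jak3i minus PBS differences were -1.68 and -0.98 for type I genes, -2.21 and -1.68 for interferon-γ genes, -1.19 and -0.23 for neutrophil genes and -1.98 and -0.89 for stressed keratinocyte genes. For endothelial genes they were 0.45 and 1.27. The skeletal muscle mean of the PBS arrays was -5.46, -2.74 and -4.10, far below all 6 inhibitor arrays, and its part in the differences from PBS was not tested. By gene, 18 of 33 type I genes in jak3i replicate 3 reached or exceeded the lowest PBS array, against 1 and 4 of 33 in jak3i replicates 1 and 2. On the jak1i arrays the counts were 2, 0 and 0 of 33. For stressed keratinocyte genes the counts were 4, 5 and 3 of 29 on the jak1i arrays, and 3, 8 and 17 of 29 on the jak3i arrays. For neutrophil genes they were 4, 7 and 8 of 26 on the jak1i arrays, and 9, 15 and 22 of 26 on the jak3i arrays. The share of all genes that reached the lowest PBS array was not counted. A gene without any difference often reaches it, so these counts do not show a return to PBS levels.

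The same comparison was made at the other times. At 0 weeks 0 of 18193 genes (0%) were called, with 527 genes higher (2.9%) and 248 lower (1.36%) at an unadjusted p under 0.05. The list medians at 0 weeks were 0.15 for type I, -0.10 for interferon-γ, -0.18 for neutrophil, 0.16 for stressed keratinocyte and -0.20 for endothelial genes. Endothelial genes were already below 0 in 32 of 34 at 0 weeks, beside 46.7% of all genes, and macrophage genes had a median of -0.66 then. Cytotoxic genes were higher in the jak1i arm at 0 weeks in 7 of 27 at the unadjusted p, and T cell genes in 11 of 24, beside 2.9% of all genes.

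The change of the difference between 0 and 12 weeks, tested as an interaction, called 0 of 18193 genes (0%). At an unadjusted p under 0.05 there were 858 genes (4.72%), 591 (3.25%) of them lower. Whether the same mice were sampled at several weeks is not stated in the sources used here. The fit treated arrays of different weeks as independent. Type I genes had a median change of -0.81, with 33 of 33 below 0 (54.3% of all genes were) and 8 of 33 past the unadjusted p. The median change was -0.88 for stressed keratinocyte, -0.35 for neutrophil, -0.37 for endothelial and -0.12 for interferon-γ genes, with 0 of 29, 1 of 26, 2 of 34 and 0 of 24 past it as lower. The difference of Mx1 was 0.50 at 0 weeks and -1.37 at 12 weeks, a change of -1.87 ± 0.80 (limma adjusted p 0.998). That of Aplnr was 0.16 at 0 weeks and -1.72 at 12 weeks, a change of -1.88 ± 0.66.

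At 6 weeks 0 of 18193 genes (0%) were called, with 470 (2.58%) at an unadjusted p under 0.05. The 6-week medians of the 5 lists lay between -0.17 and 0.19. Groups at 6 weeks did not overlap for 2.53% of genes higher in jak1i. At 24 weeks, with 2 arrays a group, 0 genes (0%) were called and 114 (0.627%) passed the unadjusted p. Groups at 24 weeks did not overlap for 8.75% of genes higher in jak1i and 11.1% lower. The 24-week medians were -0.23 for type I and -0.33 for interferon-γ genes, but 0.14 for neutrophil, 0.51 for stressed keratinocyte and 0.13 for endothelial genes. Of these lists, neutrophil, stressed keratinocyte and endothelial genes thus had medians of opposite sign at 12 and 24 weeks, and the difference between the times was not tested.

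**Figure D5:**
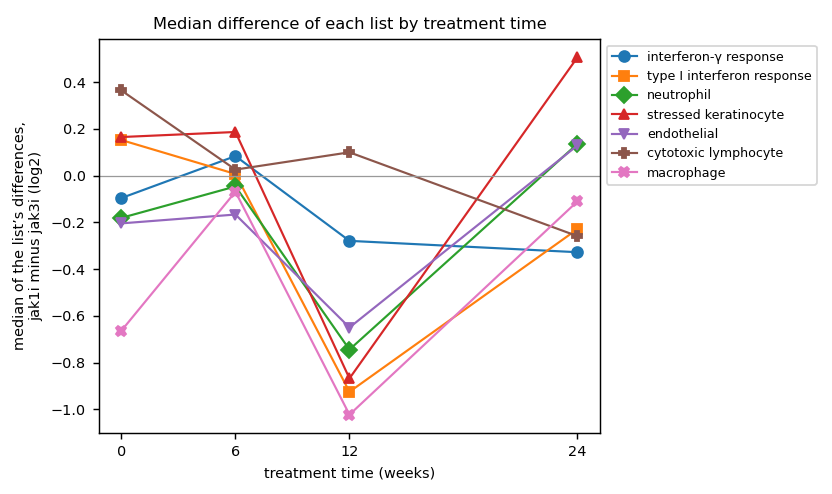
Median jak1i minus jak3i difference (log2) of 7 gene lists at 0, 6, 12 and 24 weeks; each point is the median over the genes of a list, from 3 arrays a group at 0, 6 and 12 weeks and 2 at 24 weeks. Type I, neutrophil, stressed keratinocyte, endothelial and macrophage lists are lowest at 12 weeks, between -0.65 and -1.02, and lie between -0.23 and 0.51 at 24 weeks.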

How the data were processed

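Total RNA of whole skin was hybridised to Affymetrix 3′ arrays, per the labels' protocols. The authors deposited log2 values; the submitters' processing notes name RMA without a version. No probe-level detection call or scan time entered the fit. Values ran from 2.59 to 14.69. Of 45101 probe sets, 34945 that name 1 gene were used, and each of 18193 genes was read from its probe set with the highest mean.

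limma 3.58.1 (R 4.3.3) fitted 11 group means to all 31 arrays, with 20 residual degrees of freedom, and p-values were adjusted by Benjamini-Hochberg over all genes. The series' design text calls the arrays of a group biological replicates. The number of arrays and their spread within a group limit the precision. The members and lists were chosen with earlier results of these data known. The genes named were drawn from a rule, without printing all it selects: in each direction, the 10 called genes with the largest difference, filled with those of smallest p because 0 were called; the 8 largest differences of each of the 5 main lists and the 2 largest of every other list; the 3 of smallest p in each direction at the other weeks and for the change; and fixed key genes. Other genes named (tissue markers, promoter genes, Cxcr2, Flt1, Prox1, Ubd and those so marked) were picked after their values were seen. Alternatives were array centring, a filter on dim genes, the mean of probe sets, other variance models, covariates, replicate blocks and leaving out each array. The fit was also run on simulated normal values with the same spread in every group. That run does not show how the fit handles groups of unequal spread, such as those of S100a8.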

Additional observations from a re-analysis of the deposited data

Results flagged for a closer look

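Among the genes singled out for this report, and not among all genes, 9 had groups that changed sides. All their jak1i arrays lay on one side of all jak3i arrays at 12 weeks and on the other side at another week. Groups did not overlap for 7.38% of all genes higher and 8.39% lower at 12 weeks. The shares were 8.75% and 11.1% at 24 weeks, and 2.53% higher at 6 weeks. How many of all genes changed sides was not counted. The difference between the weeks was not tested, the 24-week groups hold 2 arrays each, and no gene of the 9 was called at the other week, with a limma adjusted p of 0.99988 for Npy2r and 0.99997 for the others.

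Krt2, the upper epidermal keratin, had 5.0 and 10.06 in jak1i skin at 24 weeks, against 3.95 and 3.75 in jak3i skin, a difference of 3.68, beside -3.06 at 12 weeks. The high value belonged to jak1i replicate 2. Slfn4 had 8.90 and 8.09 in jak1i skin at 24 weeks, against 8.03 and 6.88 in jak3i skin, a difference of 1.04, beside -3.09 at 12 weeks. The lymphotoxin receptor gene Ltbr differed by 0.18 at 24 weeks, beside -0.36 at 12 weeks.

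Genes of killer and T cells had the opposite pair of signs. Nkg7 had 8.06 and 7.51 in jak1i skin at 24 weeks, against 9.06 and 8.06 in jak3i skin, a difference of -0.78, beside 1.03 at 12 weeks. Klrd1, a killer cell receptor gene, differed by -0.95 at 24 weeks, beside 1.03 at 12 weeks. Trat1, a T cell receptor adaptor gene, differed by -0.90 at 24 weeks, beside 0.63 at 12 weeks. For Irx2 and Lgr4 the 24-week differences were -0.17 and -0.19, beside 0.66 and 0.67 at 12 weeks. Npy2r, a neuropeptide Y receptor gene, differed by 0.13 at 6 weeks, beside -0.34 at 12 weeks.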

How the results depend on the processing

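At 12 weeks 0 genes were called under every alternative run, with 1087 at an unadjusted p under 0.05 in the fit of all arrays. When 1 array was left out, the number called was 0 to 1 at 6 weeks (1 without jak1i replicate 1) and 0 to 1 at 24 weeks (1 without jak1i replicate 1 and without jak1i replicate 2). Without dim genes the neutrophil median was -1.713 over 15 genes. That filter keeps a gene that is high on at least 2 arrays, which can be arrays of the groups compared. Centring the arrays moved the median of all genes to 0.11 and the unadjusted split to 1376 higher and 320 lower, beside 351 and 736. Replicate numbers did not pair the arrays: the correlations of same-numbered deviations were -0.264, -0.477 and 0.012. With the replicate block 0 genes were called, with 452 higher and 888 lower at the unadjusted p, beside 650 and 1069 for the same arrays without it.

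Under 15 settings 141 genes were examined. They were genes of the naming rule, without those it selected only at other weeks or for the change. Some genes picked after their values were seen were added, such as Ctsw, Il2rb, C1qa, C1qb and C1qc. Irf9, Stat2, Eif2ak2 and others so picked were not among them. Of the 141 genes, 23 changed sign in at least 1 setting, and the 95% interval of all 23 held 0. The cause was not tested. Leaving out 1 array gave differences of -0.87 to 0.072 for Acaa1b, -0.26 to 0.76 for Adipoq, -0.039 to 0.10 for Cd3e, -0.22 to 0.14 for Cd8a, -0.96 to 0.81 for Cxcl10, -0.77 to 1.01 for Cxcl11, -0.76 to 1.25 for Cxcl9, -1.44 to 0.13 for Gbp8, -0.84 to 0.23 for Gzmb, -0.28 to 0.31 for Ifng, -1.14 to 0.43 for Iigp1. It gave -0.40 to 0.21 for Irf1, -0.087 to 0.039 for Jak1, -0.019 to 1.91 for Jchain, -0.092 to 0.28 for Klrk1, -1.82 to 0.035 for Krt16, -0.21 to 0.83 for Krt31, -0.17 to 0.76 for Krt6a, -2.94 to 0.012 for Ltf, -0.80 to 0.17 for Neb, -1.23 to 0.41 for Thrsp, -0.043 to 0.031 for Tyk2. Centring turned the sign to 0.056 for Cd8a, 0.042 for Cxcl10, 0.087 for Ifng, 0.074 for Jak1, 0.0037 for Jak2, 0.11 for Tyk2. The mean of all probe sets turned it to 0.15 for Cd8a, 0.064 for Jak1, 0.058 for Tyk2, and the hair shaft covariate to -0.18 for Cxcl11, -0.37 for Krt31, 0.018 for Tyk2.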

Other observations

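Lists outside the main comparison showed further differences at 12 weeks, none of them with a called gene, and several rested on single arrays. Cell cycle genes were above 0 in 25 of 27, beside 49.4% of all genes, with a median of 0.28 and 0 of 27 at an unadjusted p under 0.05. Without jak1i replicate 3 the median was 0.017 with 14 of 27 above 0, without jak3i replicate 2 it was 0.12, and without jak1i replicate 1 it was 0.50 (0.41 without jak3i replicate 3). Bulge stem cell genes were above 0 in 11 of 14, with a median of 0.22 (0.12 without jak1i replicate 3 and 0.24 without jak3i replicate 3). The jak1i arrays were all above the jak3i arrays for 5 of 14, beside 7.38% of all genes. The bulge keratin gene Krt15 differed by 0.34. Mast cell genes were below 0 in 9 of 11, with a median of -0.42, and 3 of 11 passed the unadjusted p, beside 4.05% of all genes as lower. The mast cell median was -0.24 without jak1i replicate 2, with 1 of 11 past that p, -0.79 without jak1i replicate 1, -0.83 without jak3i replicate 1 and -0.57 without jak3i replicate 3, with 1 of 11 past it. At 0 weeks the mast cell median was already -0.39, with 9 of 11 below 0, and the median change between 0 and 12 weeks was -0.009.

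Hair genes had positive medians with groups that overlapped for nearly all genes: 0.40 over 30 hair shaft genes and 0.78 over 12 inner root sheath genes. The hair shaft median was 0.0050 without jak1i replicate 2, with 14 of 30 below 0, 0.64 without jak1i replicate 1, 0.19 without jak3i replicate 1, 0.14 without jak3i replicate 2 and 0.86 without jak3i replicate 3. The inner root sheath median was 1.47 without jak1i replicate 1, 0.49 without jak1i replicate 3, 0.36 without jak3i replicate 2 and 1.86 without jak3i replicate 3. The root sheath keratin genes Krt28 and Krt25 differed by 1.79 and 1.75, with groups that overlapped.

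Medians of the remaining tissue lists changed sign with single arrays. The fat median was -0.09, but 0.40 without jak3i replicate 2 and -0.35 without jak3i replicate 1 or replicate 3. The skeletal muscle median was -0.09, but -0.55 without jak3i replicate 2, 0.32 without jak3i replicate 1 and 0.31 without jak1i replicate 1. Its myosin gene Myh4 differed by 1.24 ± 1.42. The sebaceous median was -0.08, from -0.16 without jak3i replicate 3 to 0.14 without jak1i replicate 2. Class I antigen-presentation genes had a median of -0.06 over 13 genes, from -0.18 without jak3i replicate 1 to 0.074 without jak1i replicate 3. Class II genes had a median of 0.07 over 7 genes, and -0.079 without jak1i replicate 2. The melanocyte median was 0.28 over 11 genes, and 0.040 without jak1i replicate 3, with 0.98 ± 1.29 for the pigment enzyme gene Tyr.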
